A study of Mus musculus with 2 samples.

Results

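Bdh1, Oxct1 and Acat1 encode the mitochondrial enzymes that turn ketone bodies into acetyl-CoA, and their transcripts were followed in mouse calf muscle after immobilisation. The members were all array probes that are not control spots and whose gene name is one of these 3 symbols. That gave 3 genes with 5 probes, on an array with 27234 named genes and 39418 probes, some of which carry no gene name. Bdh1 had 3 probes, while Oxct1 and Acat1 had 1 each, and all 5 were well above background on both arrays. The genes were chosen with their values on these arrays known, so their own differences are given as a description and support nothing further.

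The plaster cast group consisted of wild-type male C57BL/6 mice aged 9 weeks whose hindlimb muscles had been unloaded in a cast for 11 days. The control group consisted of male C57BL/6 mice of the same age for which no cast is recorded. Total RNA of the gastrocnemius was pooled within each group, from 6 mice a group as the design text is read here, and each pool was read on 1 single-colour (Cy3) Agilent array of the mouse genome. Each group was thus 1 sample (n = 1), so no value has an SD between animals or a p-value, and precision is limited by there being 2 arrays.

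Ketone bodies, mainly 3-hydroxybutyrate and acetoacetate, are made in the liver during fasting and are burned by heart, skeletal muscle and brain. 3-hydroxybutyrate dehydrogenase (BDH1) oxidises 3-hydroxybutyrate to acetoacetate. Succinyl-CoA:3-oxoacid CoA-transferase (SCOT, encoded by Oxct1) then moves CoA from succinyl-CoA, a citric acid cycle intermediate, to acetoacetate, and is the step that the liver lacks. The mitochondrial acetoacetyl-CoA thiolase (encoded by Acat1) splits acetoacetyl-CoA into acetyl-CoA, and the same enzyme also serves the last step of isoleucine breakdown and the reverse reaction in ketone body synthesis. In skeletal muscle, oxidative fibres are known for a higher capacity to use ketone bodies than glycolytic fibres.

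The differences rest on the 60-base probes below, which are shown because the 3 Bdh1 probes read different stretches of its transcript while each of the other genes depends on 1 stretch. They are printed 5′ to 3′ as deposited, with no base singled out.
Bdh1 A_55_P2181753: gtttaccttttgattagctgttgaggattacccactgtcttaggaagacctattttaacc
Bdh1 A_51_P163106: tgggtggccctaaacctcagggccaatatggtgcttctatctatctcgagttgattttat
Bdh1 A_52_P468343: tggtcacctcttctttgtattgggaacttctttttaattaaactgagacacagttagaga
Oxct1 A_66_P108770: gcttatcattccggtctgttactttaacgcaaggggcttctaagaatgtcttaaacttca
Acat1 A_51_P319449: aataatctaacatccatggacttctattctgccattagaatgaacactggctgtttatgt

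In the mm9 assembly, per the file headers, the Bdh1 probes lie on the plus strand at chr16:31457249-31457308, chr16:31457378-31457437 and chr16:31458195-31458254, in the order printed. Neighbouring starts are 129 and 817 bases apart, and the 3 probes together span 1006 bases. The Oxct1 probe lies on the plus strand at chr15:4105196-4105255, and the Acat1 probe on the minus strand at chr9:53389868-53389927. The annotation of the exons that the probes fall in was not used here. The share of G and C was 38.3%, 45% and 35% in the 3 Bdh1 probes, 40% in the Oxct1 probe and 35% in the Acat1 probe.

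BDH1 and SCOT transcripts were lower in cast muscle, and that of the thiolase differed little. The processed signal of a probe is its brightness after the scanner software's background subtraction, and the scaled level is that signal over the 75th percentile of the array's gene probes, which was 486 on the cast array and 385 on the control array.

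For Bdh1, the brightest probe had a processed signal of 910 on the cast array and 2571 on the control array, which gave scaled levels of 1.87 in cast muscle and 6.69 in control muscle. The log2 ratio, log2(cast/control) of the scaled levels, was -1.84, a 3.57-fold lower level in cast muscle. The probe with the smallest coordinates gave 418 in cast muscle and 1256 in control muscle, a log2 ratio of -1.92. All 3 Bdh1 probes were thus lower on the cast array. The probe with the largest coordinates was the dimmest, with a signal of 51.2 in cast muscle and 225 in control muscle, and had the most negative log2 ratio of the gene at -2.47.

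The 3 Bdh1 log2 ratios had a range of 0.63 and an SD between probes of 0.34, which is a spread of probes within 1 pair of arrays and not of animals. Among 474 genes with 3 probes well above background on both arrays, the median range was 0.29, and 16.2% had a range at least as wide as that of Bdh1. With the normexp background correction, an alternative that starts from the raw brightness, the probe ratios were -1.71, -1.75 and -1.58 in the order of their coordinates, so the dimmest probe no longer had the most negative value. The size of the Bdh1 difference on its dimmest probe therefore depended on how background was removed, while all 3 probes stayed below 0.

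Oxct1, which encodes the transferase that commits acetoacetate to oxidation in tissues outside the liver, had a processed signal of 8495 on the cast array and 20786 on the control array. Its scaled level was 17.5 in cast muscle and 54.0 in control muscle. The log2 ratio was -1.63, so that the level was 3.09-fold lower in cast muscle.

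Acat1 had a processed signal of 9911 on the cast array and 8322 on the control array, and scaled levels of 20.4 in cast muscle and 21.6 in control muscle. Its log2 ratio was -0.09 after scaling. Without scaling, the sign was the opposite, at 0.25, so the data set no direction for Acat1.

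**Figure D1:**
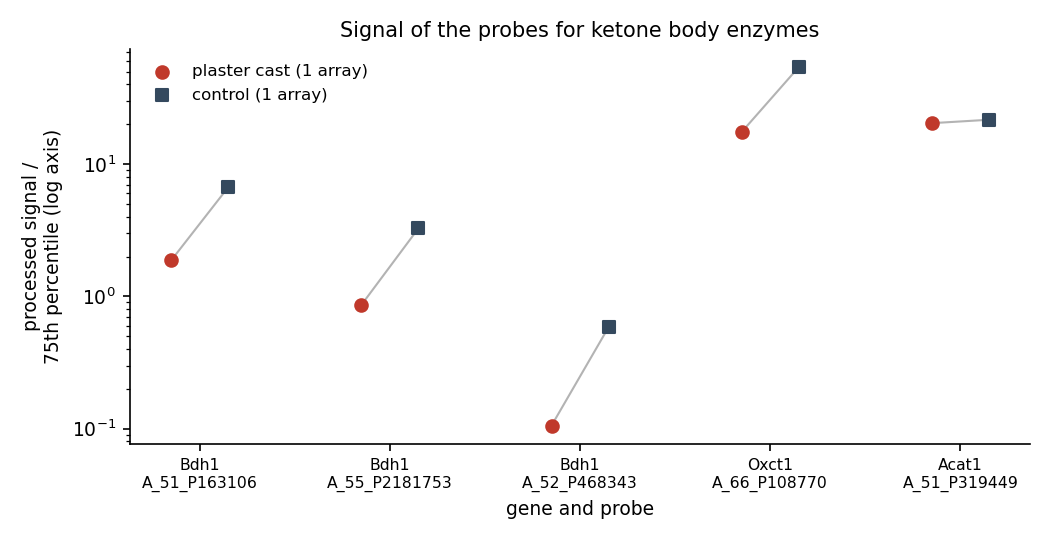
Processed signal over the 75th percentile of the array (logarithmic axis) for each of the 5 probes, with the cast array as red circles left of the control array as blue squares and a line joining the pair (1 pooled array per group, no error bars). All 3 Bdh1 probes and the Oxct1 probe are lower on the cast array, and the pair of Acat1 points is nearly level at 20.4 in cast and 21.6 in control. The heights of different probes are not comparable.

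Technical error was read in a pair of ways. Each member probe had 1 spot per array. Over 259 probes printed as several spots, the SD of a log2 ratio between spots was 0.08 for probes as bright as Oxct1, Acat1 and the brightest Bdh1 probe, and 0.16 for probes as dim as the dimmest Bdh1 probe. The scanner software's own error, which includes a preset 10% of the signal, came to 0.20 for the log2 ratios of Oxct1, Acat1 and the 2 brighter Bdh1 probes and to 0.24 for the dimmest. The differences of Bdh1 and Oxct1 were several times these errors, and that of Acat1 was close to the first and below the second. Neither error holds the spread between mice.

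The 100 detected spots around each member had median log2 ratios between -0.03 and 0.04, close to the median of all genes. Among these 100 spots, 0 were as low as the member in the case of each Bdh1 probe and of Oxct1, against 36 below Acat1. Bdh1 and Oxct1 were chosen with their low values known, so a count of 0 would be found around most places. It therefore shows nothing about position on the array. The headers give 1 slide and 1 scan time for both arrays, which differ in their place on that slide.

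Across the whole array, 15753 genes were measured, meaning that at least 1 of their probes was well above background on each array, and the brightest such probe gave a gene's value. At least 2-fold lower levels in cast muscle were held by 331 of these genes (2.1%), at least 2-fold higher levels by 355 (2.25%), and either by 686 (4.35%). With no scaling the split was 126 lower and 877 higher, and with spike-in scaling 124 lower and 906 higher. At least 1.5-fold lower levels were held by 1301 genes (8.26%), at least 1.5-fold higher levels by 1119 (7.1%), and either by 2420 (15.4%). Of the members, 2 of 3, Bdh1 and Oxct1, were lower by both sizes, and 0 of 3 were higher by either. Since the members were picked with these values in view, nothing is read from that count. In the order of all genes by log2 ratio, 32 genes lay below Bdh1, 59 below Oxct1 and 6956 below Acat1. Among the 1000 genes closest in mean signal, 0 had a lower ratio than Bdh1, 5 a lower ratio than Oxct1 and 350 a lower ratio than Acat1.

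**Figure D2:**
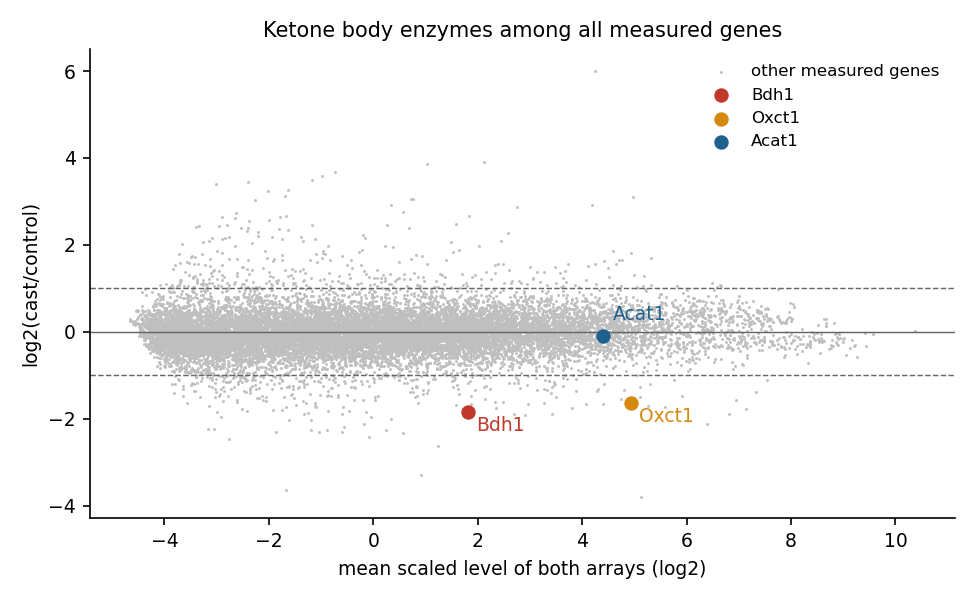
Log2(cast/control) against the mean scaled log2 level of both arrays for all 15753 measured genes (grey points), with Bdh1, Oxct1 and Acat1 in colour and dashed lines at 2-fold. Bdh1 at -1.84 and Oxct1 at -1.63 lie at the lower edge of the cloud, and Acat1 at -0.09 lies within it.

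The steps of the pathway did not differ alike. The log2 ratio of Bdh1 was 1.75 below that of Acat1 (difference -1.75, spot-level SD 0.11), and that of Oxct1 was below it too (difference -1.54, spot-level SD 0.11). These differences are between ratios of the same pair of arrays, so any scaling by 1 factor per array leaves them as they are. Bdh1 and Oxct1 lay closer to each other, with a difference of -0.21, which was within the software's error of 0.29 for such a difference although beyond the spot-level SD of 0.11.

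The sign of small differences depended on the scaling, because the gene probes as a set were brighter on the cast array. The 7 spike-in controls did not share this, since scaling on the 75th percentile put their mean log2 ratio at -0.35. The cause of the higher brightness was not tested. The median log2 ratio of all measured genes was -0.03 with the 75th percentile, 0.31 without any scaling (a shift of 0.34) and 0.32 when the spike-in controls set the scale (a shift of 0.35). Relative to the median of all genes, Bdh1 was at -1.81, Oxct1 at -1.60 and Acat1 at -0.06. No scaling, median scaling and spike-in scaling cannot change these values, since subtracting the median removes any single factor per array. Of the settings that can, quantile scaling gave -1.84, -1.70 and -0.15 for Bdh1, Oxct1 and Acat1. Loess gave -1.83, -1.71 and -0.15, and normexp -1.70, -1.53 and 0.02, in the same order. With no scaling at all, Bdh1 was 2.83-fold lower, Oxct1 2.45-fold lower and Acat1 1.19-fold higher in cast muscle.

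**Figure D3:**
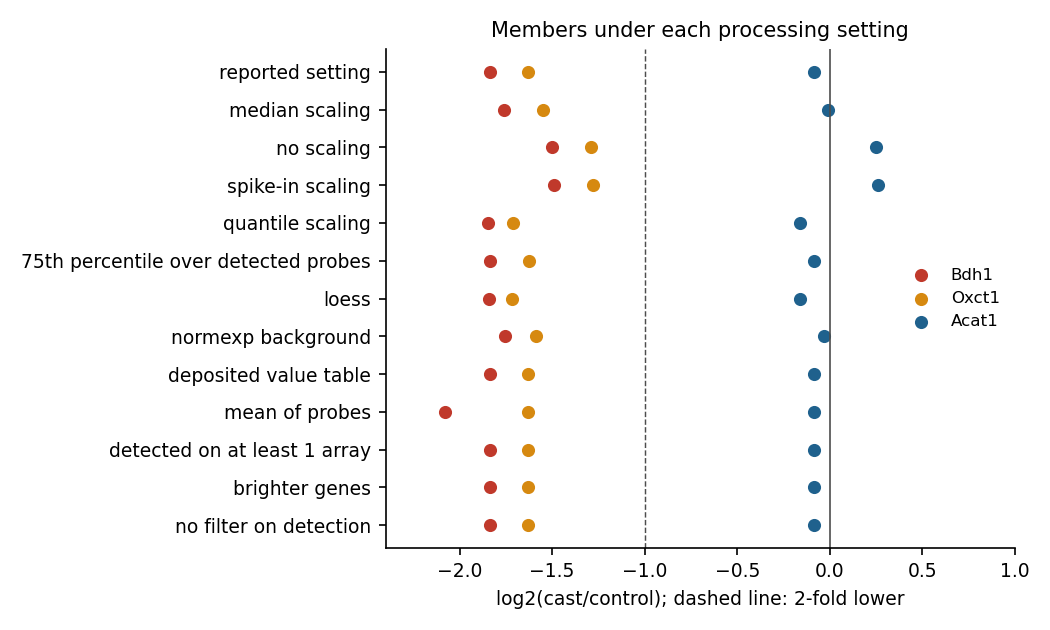
Log2(cast/control) of Bdh1 (red), Oxct1 (orange) and Acat1 (blue) under the reported setting and 12 alternatives, with a solid line at 0 and a dashed line at 2-fold lower. Bdh1 stays between -2.08 and -1.49 and Oxct1 between -1.72 and -1.28, while Acat1 runs from -0.16 to 0.26 across 0.

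Counts of list members below 0 are to be read against all measured genes, of which 8394 of 15753 (53.3%) were below 0 with the reported scaling and 3200 (20.3%) unscaled. The closest relatives of the 3 enzymes came next, in the order of the pathway. Bdh2, a cytosolic dehydrogenase named for its likeness to BDH1, had a scaled level of 0.634 in cast muscle and 0.708 in control muscle. Its log2 ratio of -0.16, which turned positive with no scaling and spike-in scaling, was 1.68 above that of Bdh1 (spot-level SD 0.13). Oxct2b, a retrogene relative of Oxct1 known from the testis, was dim, with a processed signal of 100 in cast muscle and 60.9 in control muscle and a log2 ratio of 0.38. Oxct2a, its near-identical copy, did not stand well above background in either group, and probes of these copies can share signal.

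Among the thiolases, which all cleave or join acyl-CoA chains, the transcripts of fatty acid oxidation were lower while Acat1 was not. Acaa2, the mitochondrial 3-ketoacyl-CoA thiolase, had a scaled level of 20.6 in cast muscle and 57.9 in control muscle, a log2 ratio of -1.49. Hadhb, the thiolase subunit of the trifunctional protein, was at -1.20. The ratios of Acaa2 and Hadhb were below that of Acat1 by more than the spot-level SD of 0.11, with differences of -1.41 and -1.11. The peroxisomal thiolases Acaa1a and Acaa1b were at -0.56 and -0.63. Acat2, the cytosolic acetoacetyl-CoA thiolase of sterol synthesis, was dim and at -0.78, and at -0.50 with normexp. Its neighbour in name, Acat3, was dim as well and at -0.42. Scp2, which joins a thiolase to a sterol carrier domain, was at 0.03 and crossed 0 with quantile scaling and loess. A second Scp2 probe was at 0.26. Of the 10 listed relatives, 9 were measured, with 7 below 0 (6 unscaled), a median of -0.56 and 2 at least 2-fold lower, where the median of all genes was -0.03.

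Hmgcs1 and Aacs, genes of cytosolic acetoacetate and acetyl-CoA use, differed by less than 1.5-fold, unlike the dim Acat2 given above at -0.78. Hmgcs1, the cytosolic synthase of the sterol pathway, was at -0.39, and Aacs, which activates acetoacetate in the cytosol for lipid synthesis, at 0.13. Hmgcll1 did not stand well above background in either group. Of the 6 genes listed for ketone making and cytosolic use, 3 were measured on both arrays, 2 of them below 0 and 0 past 1.5-fold in either direction, with a median of -0.39.

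The genes of transport and the receptors came next, of which few were measured. Ketone bodies cross the plasma membrane through monocarboxylate transporters, which need an ancillary protein to reach it. Slc16a1 (MCT1), the carrier of oxidative fibres, was dim, with a processed signal of 42.1 in cast muscle and 40.5 in control muscle and a log2 ratio of -0.28. Slc16a3 (MCT4), the lactate exporter of glycolytic fibres, was at 0.04, and the ancillary protein basigin (Bsg) at -0.19. Slc16a6, known as a ketone body exporter of liver cells from work in zebrafish, was at -0.27. The ratios of Slc16a1, Bsg and Slc16a6 turned positive with no scaling and spike-in scaling, and that of Slc16a3 negative with quantile scaling and loess.

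Embigin (Emb), a relative of basigin that also accompanies these carriers, differed most among the measured genes of this list. Its processed signal was 394 in cast muscle and 73.1 in control muscle. Its log2 ratio was 2.09, and 1.37 with normexp. Slc16a7, Slc5a8, Slc5a12 and the lactate receptor gene Hcar1 were not well above background on either array, and Hcar2, which encodes the receptor for 3-hydroxybutyrate, only on the control array, too dim to give a fold. Ffar3, a receptor for short-chain fatty acids, was dim and at -0.20, a sign that the same 2 scalings turned. Of 11 listed genes, 6 were measured, with 4 below 0 (0 unscaled), 0 at least 1.5-fold lower, 1 at least 2-fold higher and a median of -0.19. Over all measured genes, 8.26% were at least 1.5-fold lower and 2.25% at least 2-fold higher, so nothing is read from these counts of 6 genes.

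Of the 15 measured regulators known to act on oxidative and ketone body genes in muscle, 6 were at least 1.5-fold lower. PGC-1alpha (Ppargc1a), a coactivator that raises oxidative gene expression in muscle, was at -0.55. Its partners among the nuclear receptors were lower as well, with Ppara, the fatty acid receptor, at -1.33, and the oestrogen-related receptors Esrra, Esrrb and Esrrg at -0.67, -1.20 and -1.02. Perm1, a muscle regulator downstream of these factors, was at -1.07, and the mitochondrial deacetylase Sirt3 at -0.90. Sirt1 and Nrf1 were above 0, at 0.32 and 0.40, with the 3 Nrf1 probes between 0.04 and 0.67. Fgf21 and Foxa2, regulators of ketone body synthesis in liver, were not well above background on either array. The coactivator Ppargc1b (-0.22), the receptors Ppard (-0.31), Pparg (-0.24) and Rxra (-0.12), and the mitochondrial transcription factor Tfam (-0.27) were nearer to 0 and turned positive with no scaling and spike-in scaling. Of 17 listed genes, 15 were measured, with 13 below 0 (8 unscaled), 4 at least 2-fold lower and 0 at least 1.5-fold higher. Their median was -0.55.

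SCOT draws on succinyl-CoA and the thiolase delivers acetyl-CoA, so the transcripts of the enzymes around these metabolites were set beside Oxct1. All 18 measured genes of that list were below 0 (11 unscaled), with a median of -0.39, and 1 of 18 was at least 2-fold lower. Suclg1, the subunit shared by both succinyl-CoA ligases, was at -0.74, and Sucla2 and Suclg2, the subunits that set the nucleotide used, were at -0.26 and -0.44. Dlst, of the 2-oxoglutarate dehydrogenase that makes succinyl-CoA, was at -0.62, and citrate synthase (Cs), which consumes acetyl-CoA, at -0.34. Idh2, the NADP-dependent isocitrate dehydrogenase, was at -1.47, and Acot13, an acyl-CoA thioesterase, at -0.68. Oxct1 at -1.63 was below all 18 of these genes. Several of these ratios were small enough to turn with the scaling, as Sucla2 did with no scaling (0.08) and Cs with spike-in scaling (0.01).

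Fatty acid oxidation, the other main route to acetyl-CoA in oxidative muscle, had 21 of 21 genes below 0 (19 unscaled), with a median of -0.63, 12 at least 1.5-fold lower and 4 at least 2-fold lower. The 4 were the fatty acid binding protein Fabp3 (-2.13), lipoprotein lipase (Lpl, -1.35), Hadhb (-1.20) and Cpt2 (-1.10), the inner membrane carnitine palmitoyltransferase. In the breakdown of isoleucine and of the other branched-chain amino acids, 18 of 20 genes were below 0 (14 unscaled), with a median of -0.42 and 0 at least 2-fold lower. Bcat2, the aminotransferase that starts that route, was at -0.98. Acad8, a dehydrogenase of valine breakdown, was at -0.90, and Dbt, of the branched-chain ketoacid dehydrogenase, at -0.84. Mccc1, a carboxylase subunit of leucine breakdown, was at -0.86 with a second probe at 0.07. Hsd17b10, the dehydrogenase just before the Acat1 step in isoleucine breakdown, was at 0.29, and Echs1, the hydratase before it, at -0.27. The log2 ratio of Acat1 lay above those of 18 of the 20 genes and below those of Hsd17b10 and Bckdhb (0.21), another gene of the ketoacid dehydrogenase.

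Over the members and these 7 lists together, 93 of 104 genes were measured on both arrays. Ordered by log2 ratio, Fabp3 was the lowest, Bdh1 the second, Oxct1 the third and Acaa2 the fourth, while 82 genes lay below Acat1.

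**Figure D4:**
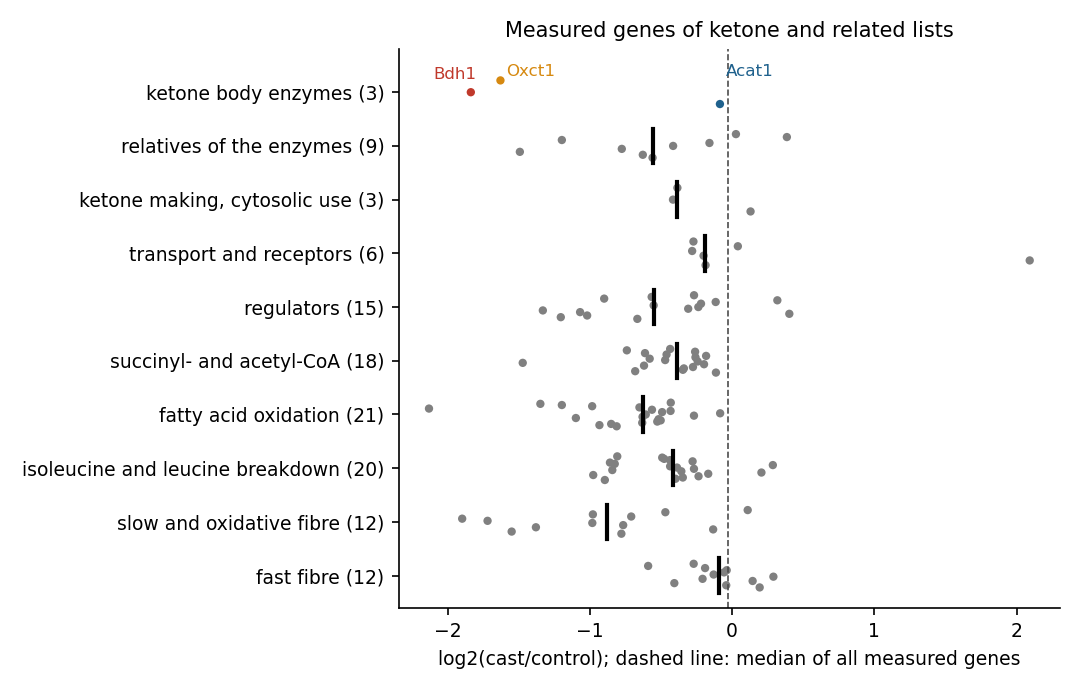
Log2(cast/control) of each measured gene (points) by list, with the number measured in brackets, a black bar at the list median and a dashed line at the median of all measured genes (1 pooled array per group). Bdh1 and Oxct1 lie left of most other points, Acat1 lies near the dashed line, and the isolated point on the right among transport genes is Emb at 2.09.

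Genes of slow and oxidative fibres, in which ketone body use is highest, differed beside the members. Of 12, 11 were below 0 (10 unscaled) and 4 at least 2-fold lower, with a median of -0.88, and their summed scaled level was 510 in cast muscle and 972 in control muscle. Myl3 (-1.90) and Myl2 (-1.72) encode light chains of slow myosin, Csrp3 (-1.55) a LIM protein of the Z-disc, and Myh2 (-1.38) the myosin of oxidative fast fibres. The 12 fast-fibre genes had a median of -0.09 and a summed level of 4267 in cast muscle and 4637 in control muscle. Of these 12, 9 were below 0 (2 unscaled), and 1, fast troponin I (Tnni2, -0.59), was at least 1.5-fold lower. The 3 above 0 were Myl1 (0.29, with a second probe at -0.74), Actn3 (0.19) and Myh1 (0.14). In whole muscle, fewer fibres of a type and less RNA per fibre cannot be told apart, and the part of the fibre genes in the differences of Bdh1 and Oxct1 was not tested.

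The tissue label was borne out by its defining genes, since all 12 muscle markers, among them Ckm and Acta1, were well above background on both arrays, with a summed level of 3129 in cast muscle and 3482 in control muscle. Of 8 liver markers, 4 were not well above background on either array (Apoa1, Ttr, Fgb and Ahsg), and Alb and Serpina1a only on the control array. The summed level of these last 2 with Cyp2e1 and Tat was 4.75 in cast muscle and 6.71 in control muscle. Nearly all of it was Cyp2e1, at 4.52 in cast muscle and 6.44 in control muscle. All 8 fibroblast markers were below 0 (6 unscaled), with a summed level of 133 in cast muscle and 228 in control muscle, led by Col1a1 at -1.76 and Col1a2 at -1.70. The 8 endothelial markers summed to 39.1 in cast muscle and 47.8 in control muscle, with 7 below 0 (2 unscaled). For adipocytes, 6 of 8 markers were measured, with sums of 87.4 in cast muscle and 97.5 in control muscle and with Lep and Ucp1 not well above background. Of the 6, 5 were below 0 (1 unscaled). The largest difference among them was that of Retn, which was higher in cast muscle on both its probes (0.86 and 0.75). For macrophages, 6 of 8 were measured, with 4 above 0, a median log2 ratio of 0.07, and Cd68 and Cd163 not well above background. Their sum was 16.4 in cast muscle and 20.2 in control muscle, and without Itgam (-0.53), the brightest, it was 6.91 in cast muscle and 6.36 in control muscle. Lyz2 and Mrc1 were at 0.58 and 0.50. The part of these cell types in the members' values was not tested.

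With 1 array per group, likeness to a member can be judged only by the log2 ratio. Closest to Bdh1 were Magix (-1.84), Grb14 (-1.83), which encodes an adaptor that restrains the insulin receptor, and Ppm1n (-1.85), of the metal-dependent phosphatase family. Closest to Oxct1 were the growth factor gene Bmp7 (-1.63), the predicted gene Gm1078 (-1.63) and the Wnt inhibitor gene Wif1 (-1.64). Slmap, Qpctl and Gstm1 were closest to Acat1, each at -0.09. Likeness over 2 arrays is a single number per gene.

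Since Bdh1 and Oxct1 were lower to a like degree, the stretches before their transcript starts were read from RefSeq on the GRCm38.p6 assembly, from 250 bases before to 50 after each start. Entries matched for 2 of 3 members, Oxct1 with 1 start and Bdh1 with 2, and Acat1 is named only. Both strands were searched. The hexamer AGGTCA, which nuclear receptors such as the PPAR and oestrogen-related receptors recognise, had 0 matches in these windows, where 16.3% of all 32851 windows hold it. Its extended form AAGGTCA, which overlaps it, therefore had 0 as well, against 4.72% of all windows. The CCAAT box had 0 matches, against 37.4%. The E-box core CANNTG had 1 in the Oxct1 window and 1 in the downstream Bdh1 window, against 72.3%, and the GC box GGGCGG had 1 in that Bdh1 window, against 35.7%. The variant GGGTCA was added after the sequences had been seen. It had 1 match in the Oxct1 window, 145 bases before the start on the minus strand, and 1 in the upstream Bdh1 window, 102 bases before the start on the plus strand. The downstream Bdh1 window, chr16:31428503-31428802, held 0, against 13.7% of all windows. A match describes letters and does not show a binding site.

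Both windows with a match are printed on the plus strand, with the GGGTCA match, or its reverse complement TGACCC, in capitals. The first is chr15:4026178-4026477 and the second chr16:31422047-31422346, both GRCm38.p6.
Oxct1: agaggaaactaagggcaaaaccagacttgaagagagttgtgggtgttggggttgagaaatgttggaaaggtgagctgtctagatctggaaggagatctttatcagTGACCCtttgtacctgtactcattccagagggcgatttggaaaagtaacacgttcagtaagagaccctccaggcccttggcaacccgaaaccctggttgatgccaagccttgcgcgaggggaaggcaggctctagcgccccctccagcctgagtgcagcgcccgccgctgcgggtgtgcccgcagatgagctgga
Bdh1: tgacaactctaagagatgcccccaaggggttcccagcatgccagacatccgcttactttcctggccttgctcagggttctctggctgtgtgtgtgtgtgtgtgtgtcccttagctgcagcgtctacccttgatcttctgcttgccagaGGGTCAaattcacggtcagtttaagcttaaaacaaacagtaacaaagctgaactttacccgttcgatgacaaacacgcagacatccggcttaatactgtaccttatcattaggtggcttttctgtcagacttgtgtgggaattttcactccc
The Oxct1 window held 55.3% G and C with 11 CG pairs, and this Bdh1 window 48.3% with 7, where the median over all windows was 52.7% and 7. The other Bdh1 window held 63.7% with 17 CG pairs.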

How the data were processed

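The authors deposited the scanner output of 2 one-colour arrays, and the submitters' processing notes name Agilent Feature Extraction 9.5. The deposited processed intensity had its background subtracted and was detrended within each array, per the file headers, with no scaling of 1 array to the other. The intensity in the series' deposited table was the processed signal over its 75th percentile times 100, rounded to a whole number (off by at most 0.50) in 55.4% of values and the same to a relative difference of 7.44e-10 in the others, and served as an alternative.

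Control spots and 11 spots flagged as non-uniform were left out. Processed signals were log2-transformed, averaged over spots of a probe and scaled on the 75th percentile of the gene probes. A gene's value is that of its brightest detected probe, where detection needs the scanner's flag for signal well above background on more than 0.5 of the spots of each array. Probes were named through RefSeq accessions (26055 of 39429), else by the name on the array, and 4722 had none. Python 3.11.15, pandas 2.3.3, R 4.3.3 and limma 3.58.1 (normexp, offset 50) were used, and the scaling steps were tested on simulated data.

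With 1 array per group no test was possible, and a 1.5-fold or 2-fold size takes its place. The members, the 16 lists, the alternatives and the choice of genes to name were settled with earlier results of these data known. The rule took all members, the 4 largest absolute log2 ratios of a list and the 3 genes closest to each member. Other genes named beside these were chosen after their values were seen, for their role in the pathway. Some genes of the lists are not reported here by name.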

Additional observations from a re-analysis of the deposited data

How the results depend on the processing

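Bdh1 and Oxct1 stayed at least 2-fold lower in cast muscle, so the count of 2 members held, under each of the 12 alternatives. Not all of these could move the members. Keeping only brighter genes, detection on at least 1 array and no filter left each member's ratio as it was. The mean of probes could not change Oxct1 or Acat1, which have 1 probe each. Bdh1 was at -1.76 with median scaling, -1.50 unscaled, -1.49 scaled on the spike-in controls, -1.75 with normexp and -2.08 with the mean of its probes. Oxct1 was at -1.55 with median scaling, -1.29 unscaled, -1.28 scaled on the spike-in controls, -1.71 with quantile scaling and -1.72 with loess. Acat1 was at -0.0067 with median scaling, and turned positive at 0.25 without scaling and at 0.26 when the spike-in controls set the scale. These 2 settings leave in the higher brightness of the gene probes on the cast array, which the spike-in controls did not share. List medians were compared after subtracting the median of all genes. Fast fibre genes were then at -0.06, and at 0.0855 with quantile scaling. Fatty acid oxidation was at -0.60, and at -0.70 with loess. Relatives of the enzymes were at -0.53, and at -0.64 among the brighter genes. Ketone making was at -0.35, and at -0.20 with no filter. Regulators were at -0.52, and at -0.42 with the mean of probes, -0.42 with normexp and -0.36 with no filter. Slow and oxidative fibre genes were at -0.85, and at -0.73 with normexp. The cause of these shifts was not tested. Of 129 other genes that were followed, 36 changed sign under some alternative, and 0 of these were among the 51 at least 1.5-fold apart. Among all genes, 355 were at least 2-fold higher and 331 lower in cast muscle. These counts were 877 and 126 unscaled, 906 and 124 scaled on the spike-in controls, 192 and 155 with normexp, 480 and 565 with detection on at least 1 array, and 830 and 945 with no filter. No paired analysis was possible because each group was 1 array. Signal over background limits dim probes such as those of Slc16a1, Acat2 and the dimmest of Bdh1.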
